A study of Arabidopsis thaliana with 70 samples.

Results

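Receptor-like proteins (RLPs) are plant cell-surface proteins that carry extracellular leucine-rich repeats and a membrane-spanning helix but no kinase domain. The 50 Arabidopsis thaliana RLP genes described here are the rows of the deposited expression table whose locus identifiers are on a list of the numbered family, without RLP17 (TMM) and RLP43. They are 50 of the 33597 genes in the table. The list goes by gene family and not by a cut on measured values, but it was drawn up with earlier results of these data known. The results below, those on genotype among them, do not cover RLP43. The study set wild type (WT) plants beside rdd, a line mutated in ROS1, DML2 and DML3, whose enzymes remove DNA methylation; the labels do not give the alleles. Seedlings 10 days old from plates were sampled at 0 h, 1 h and 3 h after flg22 at 100 nM (3 libraries per genotype and time, 18 in all). Leaves of 4-week-old soil-grown plants received water or flg22 at 100 nM by hand inoculation and were taken after 24 h (3 libraries per genotype and treatment, 12 in all). A further set of leaves got the same first inoculation and, 24 h later, the bacterium Pseudomonas syringae pv. tomato DC3000 hrcC, which lacks a working type III secretion system, for 1 h (2 libraries per genotype and treatment, 8 in all).

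An RLP cannot pass on a signal alone. As background, many RLPs pair with the receptor kinase SOBIR1 and, once a ligand binds, recruit BAK1 or another SERK co-receptor kinase. Ligands or eliciting activities are known for a few members: RLP1 (ReMAX, AT1G07390) senses a Xanthomonas activity called eMAX, RLP23 (AT2G32680) binds the nlp20 peptide of microbial necrosis-inducing proteins, and RLP32 (AT3G05650) recognises bacterial translation initiation factor IF1. RLP30 (AT3G05360) mediates responses to a fungal elicitor from Sclerotinia, and RLP42 (RBPG1, AT3G25020) recognises fungal polygalacturonases. RLP3 (RFO2, AT1G17250) contributes to resistance to Fusarium wilt, a gain-of-function form of RLP51 (SNC2, AT4G18760) switches on constant defence, and RLP52 (AT5G25910) acts in resistance to powdery mildew. RLP44 (AT3G49750) instead links cell wall state to brassinosteroid signalling, and flg22, a stretch of the flagellin of bacteria, is itself sensed by the receptor kinase FLS2, not by an RLP.

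Levels are taken as FPKM (fragments per kilobase of gene, scaled to library size), so they are per length and can be set side by side between genes, and differences are on the log2(FPKM + 1) scale, which understates the change of low genes. A difference was called at a Benjamini-Hochberg adjusted p of limma below 0.05 over all genes tested. The 38 RNA libraries totalled 904625 to 1231239 FPKM, which is no read depth. Relative depth was estimated from the nonzero values of 979 low genes detected in few libraries. It was 0.17 in replicate 2 of rdd seedlings at 3 h and 0.708 to 1.45 in the other 37 libraries. Organelle genes took 3.03% to 5.54% of the FPKM in leaf replicates 1 and 2 but 0.0734% to 0.0979% in leaf replicate 3, so leaf replicate 3 stood apart from the other leaf libraries of its groups. A list of root markers summed to 741 to 2009 FPKM in the seedlings and to at most 0.42 FPKM in the leaves. Nothing in the labels says whether the libraries of a group came from separate plants, so p-values measure the spread between these libraries.

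The summed level of the family was higher in water-inoculated leaves than in untreated seedlings, and its group means were highest in leaves that had received flg22 and then hrcC. The summed level of all 50 members was 121, 129 and 141 FPKM in the WT seedling libraries at 0 h and 277, 263 and 472 FPKM in the WT water-inoculated leaf libraries, which did not overlap. The ratio of the group means was 2.59 in WT and 2.63 in rdd. In the hrcC leaves the WT sums reached 796 and 735 FPKM after water and 1082 and 1250 FPKM after flg22. The WT leaf library of replicate 3 with flg22 alone, at 1278 FPKM, lay above both of the latter. The highest sums of all, 1401 and 1668 FPKM, were those of rdd leaves that had received flg22 and then hrcC. These are bulk samples, in which fewer cells of a type and less RNA per cell cannot be told apart.

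The 5 most abundant members made up 62.7% of the family sum in untreated WT seedlings and 48.1% in WT water-inoculated leaves. RLP54 (AT5G40170), RLP51 and RLP26 (AT2G33050) led in untreated WT seedlings, with group means of 22.1, 21.1 and 16.2 FPKM. RLP19 (AT2G15080), RLP34 (AT3G11010) and RLP54 led in WT water-inoculated leaves, at 44.5, 35.3 and 34.5 FPKM. RLP23 led in all 4 hrcC groups, with group means from 109.5 FPKM in WT leaves that had first received water to 192 FPKM in rdd leaves that had first received flg22. A mean of at least 1 FPKM was reached by 19 members in WT seedlings at 0 h, by 34 in WT water-inoculated leaves and by 41 in WT leaves given flg22 and then hrcC.

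Of the 50 members, 5 passed the filter on low values in no comparison. RLP5 was listed at 0 in all 38 libraries, and RLP15, RLP25, RLP55 and RLP56 stayed at or below 0.93 FPKM in each. The other 45 members had their highest group mean most often in rdd leaves given flg22 and then hrcC (13 members) and in WT leaves given flg22 and then hrcC (7 members). A member that passed the filter through the group in which it was high had to differ from the others, so the counts of called members that follow are descriptions, set beside the share of all tested genes called the same way.

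**Figure D1:**
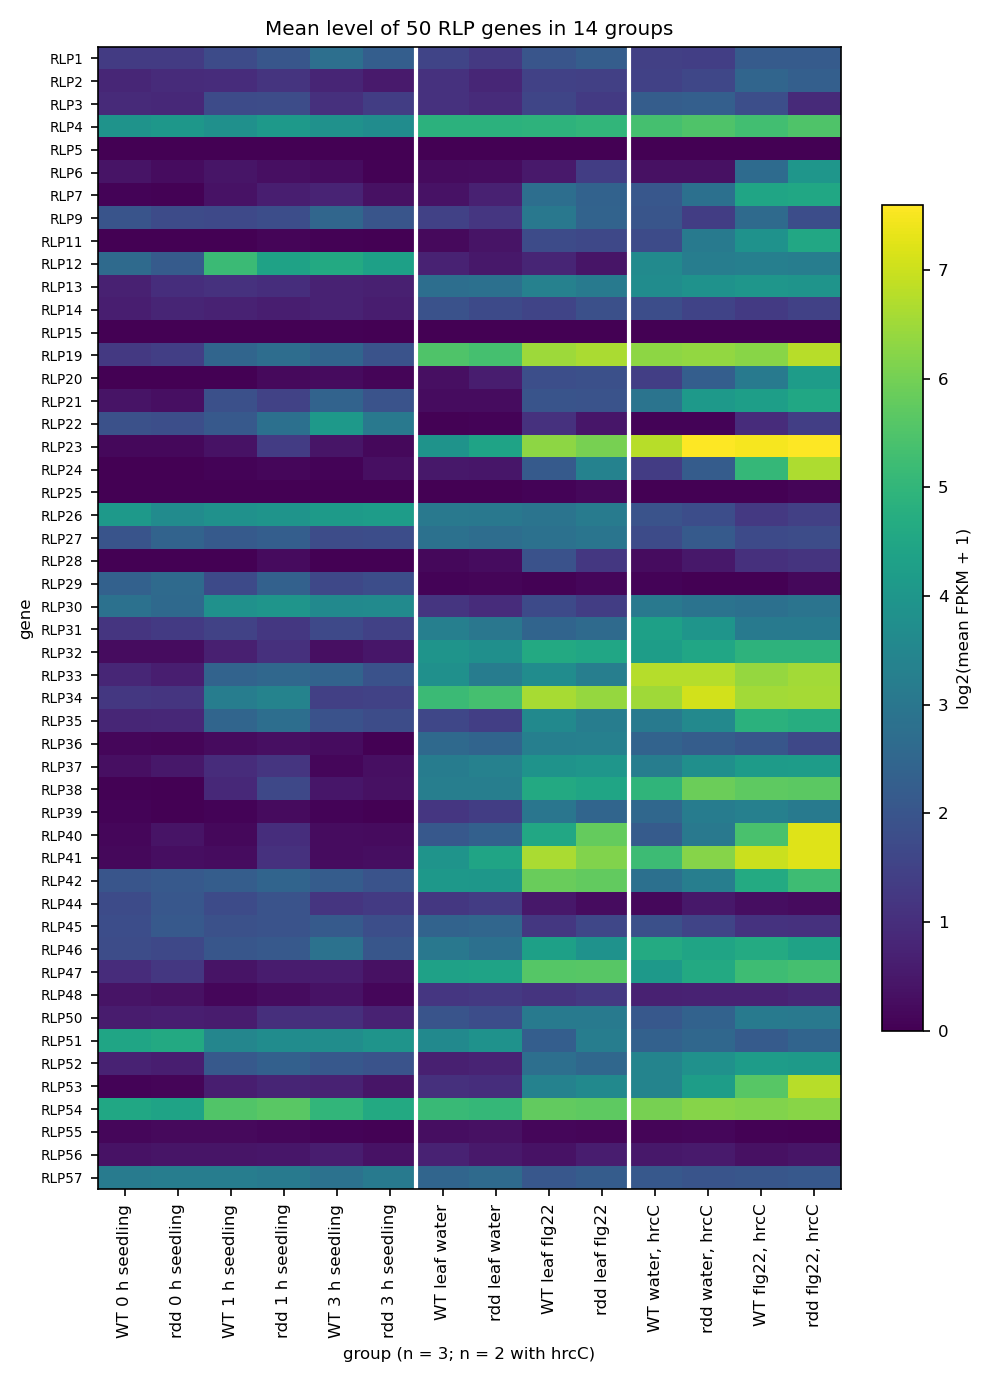
Mean level of each of the 50 RLP genes (rows) in the 14 groups (columns), as a colour on the log2(FPKM + 1) scale; means are over 3 libraries, or 2 for the hrcC groups. RLP54 is bright throughout, RLP12, RLP22, RLP29 and RLP30 are brighter in seedlings than in water-inoculated leaves, and RLP19, RLP23, RLP32, RLP34 and RLP41 are brighter in leaves.

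The tissue difference ran in both directions among the members. Of 36 members tested between water-inoculated leaves and untreated seedlings of WT, 24 were called higher in leaves and 7 lower, where 33.8% of all genes were called higher and 24.7% lower. In rdd 22 were higher and 7 lower, beside 31.3% and 26.7% of all genes. The median member differed by 1.04 in WT and the median gene by 0.19. Age, growth on plates or soil, organ and inoculation all differ here and cannot be told apart.

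Among the genes with higher leaf levels, RLP23 stood at 0.17, 0.17 and 0.04 FPKM in WT seedlings and at 13.3, 14.5 and 13.9 FPKM in WT water-inoculated leaves. That is a log2 difference of 3.73 ± 0.15 (SE, adjusted p = 1.4e-08). RLP19 (4.18 ± 0.41), RLP34 (3.77 ± 0.45), RLP41 (3.74 ± 0.20), RLP32 (3.67 ± 0.28) and RLP47 (3.31 ± 0.30) were the other members with the greatest log2 differences in that direction. RLP32 was at 0.11, 0.17 and 0.27 FPKM in the seedlings and at 11.6, 13.2 and 18.3 FPKM in the leaves, again with no overlap.

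The members lower in leaves were led by RLP29 (AT2G42800), one of the RLPs conserved across land plants. RLP29 stood at 3.50, 3.95 and 4.82 FPKM in WT seedlings and at no more than 0.12 FPKM in WT water-inoculated leaves, a log2 difference of -2.26 ± 0.14 (adjusted p = 5.1e-07). RLP12 (-1.90 ± 0.24), RLP22 (-1.83 ± 0.15), RLP30 (-1.67 ± 0.15) and RLP26 (-1.03 ± 0.19) were also lower in leaves. RLP51 was lower by -0.92 ± 0.33 (adjusted p = 0.034), a call lost in 4 of the 6 fits that left out 1 library, with adjusted p up to 0.12. RLP57 (AT5G65830), another conserved member, was lower by -0.70 ± 0.18, and RLP4 (AT1G28340), also conserved, was higher by 0.97 ± 0.17.

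The 5 members with known microbial ligands or elicitors therefore did not all differ the same way between untreated seedlings and water-inoculated leaves. RLP23, RLP32 and RLP42 were called higher in WT leaves than in seedlings, RLP30 was called lower, and RLP1, with a log2 difference of 0.26 ± 0.16, was not called. RLP30 was at 6.20, 5.96 and 6.31 FPKM in WT seedlings and at 1.32, 1.19 and 1.24 FPKM in WT water-inoculated leaves. RLP42 was at 2.41, 3.41 and 3.10 FPKM in the seedlings and at 9.39, 8.40 and 28.6 FPKM in the leaves, the highest leaf value being that of replicate 3.

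**Figure D2:**
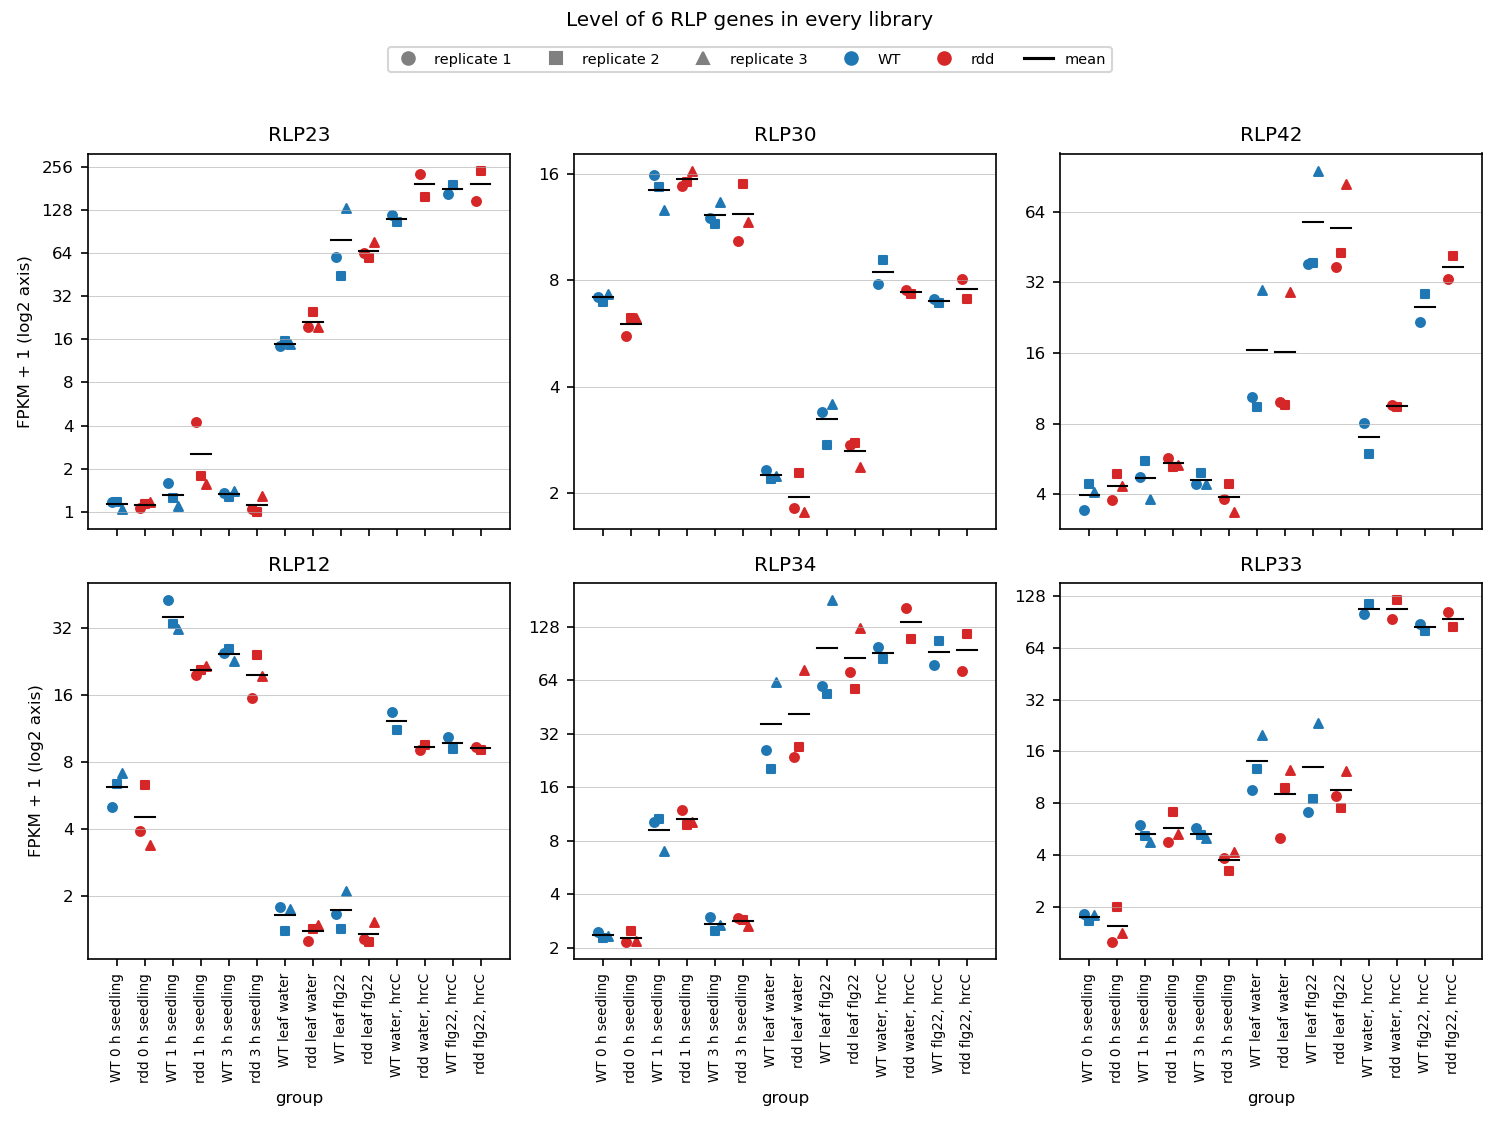
Level of RLP23, RLP30, RLP42, RLP12, RLP34 and RLP33 in each library of the 14 groups, as FPKM + 1 on a log2 axis, with replicate numbers as marker shapes and genotypes as colours. RLP34 stands at 5.96 to 9.57 FPKM in the 3 WT seedling libraries at 1 h and at 1.96 FPKM or less at 3 h; leaf replicate 3 is often the highest library of its group for RLP34 and RLP42.

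In seedlings, 1 h of flg22 was accompanied by higher levels of a sizeable subset of RLPs, led by RLP12 and RLP34. Of 30 members tested in WT, 12 rose and 1 fell, beside 9.62% of all genes that rose and 7.64% that fell. In rdd 12 rose and 1 fell, beside 10.2% and 6.58% of all genes. All 12 risers were shared by the genotypes (RLP3, RLP12, RLP19, RLP21, RLP30, RLP33, RLP34, RLP35, RLP37, RLP38, RLP52 and RLP54), as was the member that fell, RLP51. The median log2 change of the members was 0.30 in WT and 0.47 in rdd, and that of all genes was -0.08 and -0.05. Seedlings held no mock-treated libraries at 1 h or 3 h, so flg22 and elapsed time cannot be told apart. Over both genotypes the sum of the mesophyll list, of 4 photosynthesis genes, was 27010 to 33683 FPKM at 0 h, 19908 to 27171 FPKM at 1 h and 19615 to 22734 FPKM at 3 h, and that of the root list, also of 4 genes, was 1416 to 1991 FPKM, 1200 to 2009 FPKM and 741 to 1204 FPKM. Their part in the RLP changes was not tested.

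RLP12 (AT1G71400) rose in WT seedlings from 4.04, 5.36 and 6.17 FPKM at 0 h to 41.8, 32.5 and 30.9 FPKM at 1 h, a log2 change of 2.54 ± 0.21 (adjusted p = 9.6e-08). In rdd RLP12 was at 18.8, 19.8 and 20.7 FPKM at 1 h, with a change of 2.24 ± 0.21. Within each genotype the RLP12 libraries at 0 h and 1 h did not overlap. RLP34 rose in WT from 1.46, 1.25 and 1.33 FPKM to 9.13, 9.57 and 5.96 FPKM, a change of 1.95 ± 0.17 (adjusted p = 2e-07). RLP35 (1.60 ± 0.33), RLP33 (1.59 ± 0.20), RLP21 (1.44 ± 0.24) and RLP52 (1.41 ± 0.21) followed in WT. The most changed in rdd after RLP12 and RLP34 (2.23) were RLP33 (1.89), RLP35 (1.89), RLP52 (1.66) and RLP38 (1.61).

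RLP30, of the fungal elicitor, was the 1 member of the ligand group that rose at 1 h. It went from 6.20, 5.96 and 6.31 FPKM to 14.9, 13.7 and 11.6 FPKM in WT, a change of 1.00 ± 0.15 (adjusted p = 7.2e-05), and by 1.36 ± 0.15 in rdd. RLP1 and RLP42 were tested and not called at 1 h in either genotype (RLP1 0.40 ± 0.24 in WT and 0.68 ± 0.24 in rdd, RLP42 0.23 ± 0.18 and 0.33 ± 0.18), and RLP23 and RLP32 did not pass the filter in seedlings. Of the resistance-linked genes, RLP52 rose in WT from 0.63, 0.80 and 0.51 FPKM to 3.58, 3.32 and 3.19 FPKM. RLP3 rose by 0.83 ± 0.23 in WT, a call lost in 4 of 6 fits without 1 library, with adjusted p up to 0.11. For RLP19 the WT call was lost without replicate 1 at 1 h (adjusted p = 0.057), and for RLP37 it was lost without any of the 3 libraries at 0 h (up to 0.094).

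RLP51 was the member that fell. It stood at 25.7, 16.3 and 21.4 FPKM in WT at 0 h and at 12.0, 9.52 and 8.78 FPKM at 1 h, with no overlap, a change of -0.99 ± 0.19 (adjusted p = 0.00086). In rdd it fell by 0.94 ± 0.19 on the log2 scale. Of the 6 conserved or developmental members, which include RLP51, 5 were tested at 1 h and RLP51 alone was called in WT; RLP4, RLP29, RLP44 and RLP57 had WT changes of -0.10 ± 0.16, -0.65 ± 0.27, -0.02 ± 0.29 and 0.05 ± 0.14.

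At 3 h the set had shifted. In WT, 10 members rose and 1 fell, beside 12.1% and 6.81% of all genes, and in rdd 8 rose and 3 fell, beside 8.04% and 8.03%. The genotypes shared 7 risers, 70% of the WT list and 87.5% of the rdd list. The greatest changes in WT were those of RLP22 (2.16 ± 0.34), RLP21 (2.01 ± 0.24), RLP12 (2.00 ± 0.21), RLP33 (1.60 ± 0.20), RLP1 (1.46 ± 0.24) and RLP52 (1.38 ± 0.21). RLP1 went from 1.06, 1.72 and 1.65 FPKM at 0 h to 6.05, 6.67 and 4.69 FPKM at 3 h. Its 1 h libraries, at 3.44, 2.33 and 1.29 FPKM, overlapped those at 0 h. RLP22 (AT2G32660) went from 2.11, 3.13 and 2.92 FPKM to 21.0, 16.3 and 10.8 FPKM in WT and, in rdd, from 2.24, 2.69 and 2.78 FPKM to 3.16, 11.0 and 7.80 FPKM.

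RLP12 (2.15), RLP21 (1.60), RLP52 (1.29), RLP33 (1.29), RLP22 (1.09) and RLP30 (1.02) led the rdd risers at 3 h. The rdd call of RLP22 was lost in 5 of 6 fits without 1 library, with adjusted p up to 0.17. RLP51 (-0.67), RLP47 (-0.87) and RLP29 (-0.92) fell in rdd at 3 h, and of these 3 calls those of RLP51 and RLP29 were lost without the shallow replicate 2 of the 3 h group, among other libraries. A fit to the compared groups alone called 5 of 24 tested members higher and 0 lower in rdd, beside 716 and 178 of 17721 genes. In WT the fall of RLP51 (-0.75 ± 0.19) was lost without replicate 1 at 0 h (adjusted p = 0.055), and the rise of RLP35 was lost in 4 of 6 such fits (up to 0.097).

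RLP34 was high at 1 h and back near its starting level at 3 h. Its WT libraries at 3 h stood at 1.96, 1.47 and 1.68 FPKM, below all 3 libraries at 1 h, and the direct comparison gave -1.75 ± 0.17 in WT and -1.92 ± 0.17 in rdd. Between 1 h and 3 h, 4 members rose and 4 fell in WT, beside 11.9% and 6.77% of all genes. The WT risers were RLP22 (1.94), RLP1 (1.06), RLP9 (0.86) and RLP46 (0.83), and the others that fell were RLP37 (-0.83), RLP54 and RLP3, the last pair lost in 5 and 4 of 6 fits without 1 library. In rdd 0 rose and 6 fell, beside 4.16% and 7.26%, led by RLP34 and RLP38 (-1.27). RLP46 lost its WT call without replicate 3 at 1 h (adjusted p = 0.069).

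**Figure D3:**
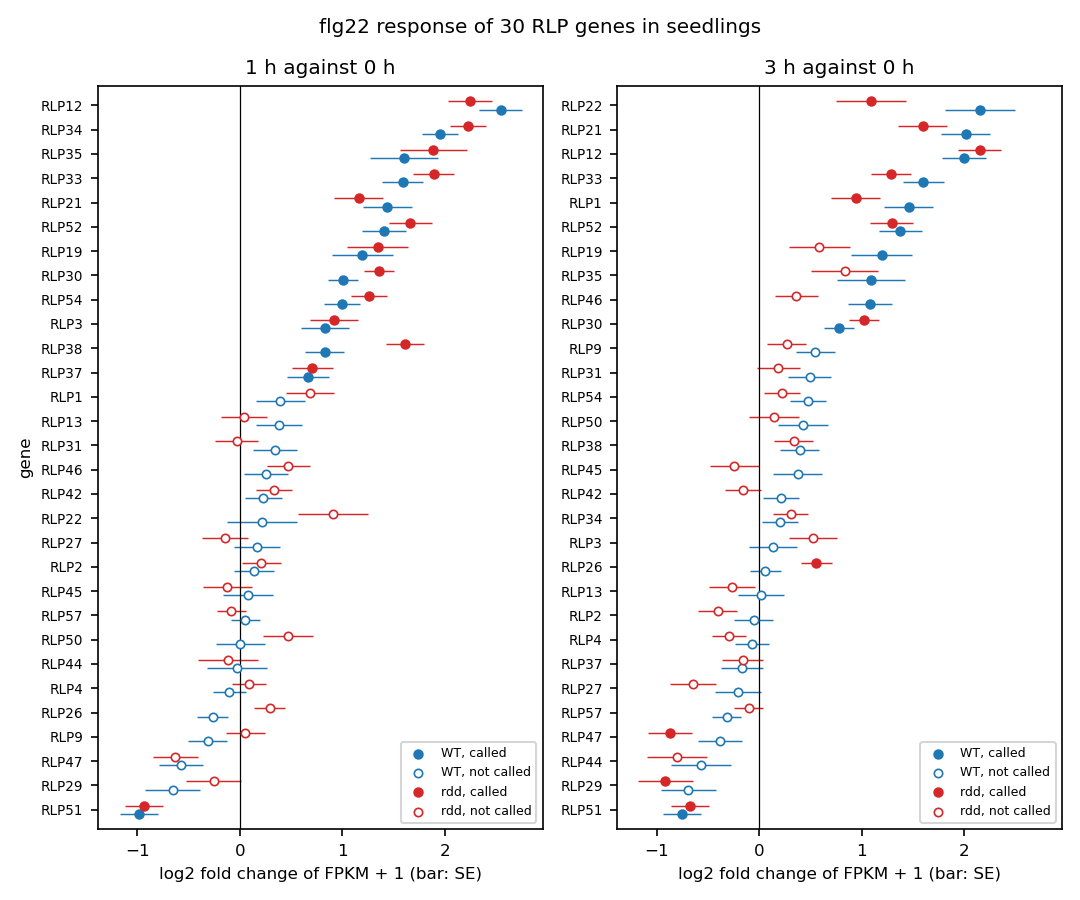
Log2 change of each of the 30 RLP genes tested in seedlings at 1 h (left) and 3 h (right) of flg22 against 0 h, in WT (blue) and rdd (red), with bars of 1 SE and filled points for calls. RLP12 lies above 2 in both genotypes at 1 h and RLP51 below 0, and RLP34 lies near 2 at 1 h.

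In leaves 24 h after inoculation, flg22 was accompanied by a higher family sum than water, with RLP23, RLP41, RLP7, RLP52 and RLP35 among the members that rose most in WT. The WT sums were 573, 515 and 1278 FPKM after flg22 against 277, 263 and 472 FPKM after water, and the ratio of means was 2.34 in WT and 2.25 in rdd. Of 40 members tested, 15 rose and 1 fell in WT, beside 14.8% and 8.3% of all genes, and 15 rose and 2 fell in rdd, beside 12.8% and 3.72%. The genotypes shared 13 risers, 86.7% of each list. The median member changed by 1.00 in WT and 1.04 in rdd, and the median gene by 0.10 and 0.18; with median-ratio scaling the median gene was at 0.00 and 0.01 and the median member at 0.89 and 0.86. Same-numbered leaf libraries varied together, and a fit with replicate number as a block called 25 higher and 4 lower in WT and 24 and 4 in rdd, where 29.6% and 17.9% of all genes (WT) and 30.4% and 10.9% (rdd) were called. Replicates 1 and 2 alone gave 24 and 3 in WT, beside 31.5% and 18.1% of all genes, and 26 and 3 in rdd, beside 32.3% and 13.5%.

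RLP23 rose in WT leaves from 13.3, 14.5 and 13.9 FPKM to 58.9, 43.3 and 131 FPKM, a change of 2.24 ± 0.33 (adjusted p = 0.0015). In rdd it went from 18.4, 23.9 and 18.4 FPKM to 62.8, 57.6 and 75.8 FPKM, a change of 1.65 ± 0.33. The groups did not overlap in either genotype. RLP41 (AT3G25010), RLP7 (AT1G47890), RLP52 and RLP35 (AT3G11080) were the other members that rose by the greatest amounts in WT, by 2.41 ± 0.48, 2.30 ± 0.31, 2.13 ± 0.27 and 1.98 ± 0.21.

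RLP42 had a wider spread than RLP23. It stood at 9.39, 8.40 and 28.6 FPKM after water and at 37.4, 37.8 and 95.0 FPKM after flg22 in WT, with replicate 3 the highest library of each group. Its change of 1.88 ± 0.60 had an adjusted p of 0.048, lost in 5 of 6 fits without 1 library, and 4.8e-05 with the replicate block. RLP1 rose in rdd (0.98 ± 0.17) and was not called in WT (0.44 ± 0.17, adjusted p = 0.087), and the difference between the genotypes was not called. RLP30 (0.52 ± 0.17) and RLP32 (0.56 ± 0.42) were not called in WT. With the block, RLP30, RLP32 and RLP1 were called higher in WT, as were RLP13, RLP19, RLP34, RLP37, RLP38, RLP46 and RLP53.

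In rdd leaves RLP35 (1.80), RLP52 (1.78), RLP7 (1.73), RLP41 (1.68), RLP23 (1.65) and RLP21 (1.57) led. The rdd call of RLP41 was lost in each of the 6 fits without 1 library (adjusted p up to 0.13), and that of RLP21 in 5 (up to 0.090). RLP52 went from 0.83, 0.68 and 0.23 FPKM to 5.72, 4.66 and 7.29 FPKM in WT, again without overlap. RLP28 (AT2G33080), a further gene of the resistance-linked list, rose in WT from at most 0.25 FPKM to 2.14, 1.16 and 4.99 FPKM (1.62 ± 0.31, adjusted p = 0.0050).

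Few members fell. RLP45 (AT3G53240) stood at 3.81, 3.67 and 5.57 FPKM after water and at 1.17, 1.16 and 1.66 FPKM after flg22 in WT, a change of -1.19 ± 0.19, and it fell by 0.89 ± 0.19 in rdd, where the call was lost in 3 of 6 fits without 1 library (adjusted p up to 0.060). RLP44 fell by 1.04 ± 0.27 in rdd, a call lost in 4 of 6 such fits, and had -0.73 ± 0.27 in WT. RLP51 had -1.43 ± 0.57 in WT (adjusted p = 0.10) and was called lower with the replicate block (-1.43 ± 0.19, adjusted p = 0.00061). With the block RLP44 (-0.73 ± 0.27, adjusted p = 0.050) and RLP31 (-0.79 ± 0.12, adjusted p = 0.0012) were also called lower in WT, and RLP31, RLP44 and RLP51 were called lower in rdd. Of 4 conserved or developmental members tested, limma called 0 in WT without the block, where RLP44 and RLP51 had unadjusted p of 0.021 and 0.031, and 2 with it. RLP4 and RLP57 had WT changes of 0.02 ± 0.13 and -0.42 ± 0.27.

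Sums of the marker lists moved with flg22 in leaves. The mesophyll list summed to 39769 to 56103 FPKM in water-inoculated leaves and to 14804 to 25806 FPKM in flg22 leaves, and the epidermis list to 153 to 226 FPKM and 42.7 to 129 FPKM. The phloem companion cell list, of 3 genes, was higher after flg22, at 356 to 453 FPKM and 517 to 658 FPKM, and the guard cell list overlapped, at 39.5 to 65.1 FPKM and 33.4 to 60.6 FPKM. Their part in the RLP differences was not tested.

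After hrcC, leaves that had first received flg22 differed from those that had first received water, with RLP24 and RLP40 in the lead. Of 42 members tested, 20 were called higher and 4 lower in WT, beside 22.4% and 23% of all genes, and 15 and 2 in rdd, beside 22% and 18.6%. All 15 higher members of rdd were among the 20 of WT. The median member was at 0.72 in WT and 0.34 in rdd, and the median gene at 0.00 and 0.03.

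RLP24 (AT2G33020) was at 1.34 and 1.75 FPKM after water and at 32.5 and 31.7 FPKM after flg22 in WT, a difference of 3.71 ± 0.16 (adjusted p = 2e-05), and in rdd it was at 3.00 and 4.19 FPKM and at 111 and 90 FPKM, a difference of 4.47 ± 0.16. RLP40 (AT3G24982) was at 3.74 and 3.30 FPKM after water and at 33.4 and 49.5 FPKM after flg22 in WT (3.21 ± 0.20), with a difference of 4.19 ± 0.20 in rdd. Neither gene's groups overlapped, but both were named for the size of these differences, with 2 libraries per group. RLP7 (2.41), RLP6 (2.32), RLP53 (2.20) and RLP11 (2.14) followed in WT, and RLP6 (3.63), RLP53 (2.58), RLP42 (1.96) and RLP20 (1.88) in rdd.

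Of the ligand group, RLP1, RLP32 and RLP42 were higher after flg22 in both genotypes. RLP42 was at 7.03 and 4.93 FPKM after water and at 20.6 and 27.6 FPKM after flg22 in WT (1.85 ± 0.20, adjusted p = 0.00030), and RLP32 at 19.1 and 16.5 FPKM and at 29.1 and 29.5 FPKM (0.69 ± 0.10). The call of RLP1 in WT (0.75 ± 0.18) was lost without replicate 2 of either group (adjusted p up to 0.080), and in rdd (0.80 ± 0.18) without replicate 1 of the water group (0.066). The rdd call of RLP32 was lost in 2 of 4 such fits (up to 0.070). RLP23, at 116 and 103 FPKM after water and at 164 and 191 FPKM after flg22 in WT, was not called (0.69 ± 0.25, adjusted p = 0.060; in rdd -0.01 ± 0.25), nor was RLP30 (-0.27 ± 0.13 and 0.03 ± 0.13).

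RLP31 (AT3G05370) was lower after flg22 in both genotypes (-1.20 ± 0.12 and -0.84 ± 0.12). The other members lower in WT were RLP45 (-0.72), RLP26 (-0.69) and RLP14 (-0.52), with calls lost in 1, 2 and 4 of 4 fits without 1 library. RLP3 was lower in rdd (-1.38 ± 0.24), at 5.18 and 2.76 FPKM after water and at 0.70 and 1.02 FPKM after flg22. In WT RLP3 had -0.42 ± 0.24 and was not called, and the genotype difference in this response was not called. The mesophyll sums here were 16034 to 19452 FPKM after water and 5859 to 7951 FPKM after flg22, those of the epidermis list 144 to 173 FPKM and 95.2 to 107 FPKM, and those of the phloem list 372 to 458 FPKM and 502 to 587 FPKM; their part was not tested.

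Leaves with hrcC were set beside leaves of the same first treatment without it. The hrcC leaves were inoculated a second time, taken later and form a set of libraries of their own, so bacterium, second inoculation and library set cannot be told apart. Of 44 members tested in WT, 19 were called higher and 5 lower after water, beside 21.6% and 23.6% of all genes, and 15 and 3 after flg22, beside 18.9% and 28.7%. In rdd the counts were 22 and 4 after water, beside 22.1% and 24%, and 17 and 4 after flg22, beside 19% and 29.7%. Organelle genes took 0.0818% to 0.117% of the FPKM in the hrcC libraries, near leaf replicate 3. With leaf replicate 3 as the lone library without hrcC, assumed to vary like the other groups, the counts were 17 and 8 (26.4% and 37.1% of all genes) and 14 and 10 (20.3% and 37.6%) in WT after water and flg22. In rdd they were 20 and 6 (27% and 35.9%) and 16 and 7 (21.4% and 40.3%).

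RLP33 (AT3G05660) showed the greatest difference of the WT water leaves. It stood at 8.60, 11.7 and 18.9 FPKM without hrcC and at 99.5 and 114 FPKM with it, a difference of 3.00 ± 0.47. RLP12, low in leaves, was at 0.79, 0.40 and 0.76 FPKM and at 12.4 and 10.2 FPKM, a difference of 2.90 ± 0.18 (adjusted p = 2.2e-08). RLP23 (2.89 ± 0.35), RLP52 (2.80 ± 0.26), RLP21 (2.65 ± 0.40) and RLP53 (2.43) were next, and the last was lost in 4 of 5 fits without 1 library. In rdd water leaves RLP21 (3.86), RLP33 (3.65), RLP53 (3.28), RLP23 (3.17), RLP52 (3.09) and RLP38 (2.98) led, with the RLP53 call lost without replicate 2 of the hrcC group (adjusted p = 0.058) and RLP38 at 1.61 with leaf replicate 3 alone.

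In flg22 leaves RLP24 (3.67 in WT and 4.57 in rdd), RLP33 (2.91 and 3.32), RLP53 (2.85 and 4.01) and RLP11 (2.23 and 2.92) were among the members most raised with hrcC. RLP12 (2.51) and RLP21 (2.42) completed the leading 6 in WT, and RLP6 (2.98) and RLP40 (3.00) in rdd. Several of these values shrank with leaf replicate 3 alone. RLP40 was then at -0.02 ± 0.25 (adjusted p = 0.94) in rdd, RLP24 at 1.64 in WT and 1.88 in rdd, RLP53 at 1.08 and 1.88, RLP6 at 1.57 in rdd, and RLP33 and RLP21 at 1.85 and 1.49 in WT. Of these only RLP40 lost its call. The WT call of RLP53 was lost in 4 of 5 fits without 1 library (adjusted p up to 0.080).

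RLP30 and RLP23 were the 2 ligand-group members higher with hrcC in all 4 comparisons. RLP30 went from 1.32, 1.19 and 1.24 FPKM to 6.82 and 8.12 FPKM in WT water leaves (1.91 ± 0.16, adjusted p = 3.2e-07). In WT flg22 leaves RLP23 differed by 1.33 ± 0.35, and with leaf replicate 3 alone by 0.43 ± 0.31 (adjusted p = 0.26). RLP42 was not called in any of the 4 (-1.05 ± 0.58 in WT water leaves), but with leaf replicate 3 alone it was called lower in each, by -2.10 ± 0.24 in WT water leaves. RLP52 of the resistance list and RLP4 of the conserved list were also higher in all 4, by 2.80 ± 0.26 and 0.47 ± 0.13 in WT water leaves, where the RLP4 call was lost without replicate 1 of the hrcC group (adjusted p = 0.075) and with leaf replicate 3 alone (0.073). RLP1 and RLP32 were not called, with WT water differences of -0.13 ± 0.17 and 0.31 ± 0.39.

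RLP26 was lower with hrcC in all 4 comparisons. It stood at 7.95, 6.95 and 7.17 FPKM without hrcC and at 3.00 and 2.66 FPKM with it in WT water leaves, a difference of -1.13 ± 0.20, and at -1.67 in WT flg22 leaves, -1.25 in rdd water leaves and -1.71 in rdd flg22 leaves. RLP27 (-1.07, lost without replicate 2 of the hrcC group and, at -0.49, with leaf replicate 3 alone), RLP44 (-1.05 ± 0.25), RLP45 (-0.56) and RLP48 (-0.51) were the other members lower in WT water leaves, the last pair lost in 3 and 4 of 5 fits without 1 library. With leaf replicate 3 alone RLP45 was at -0.87 there and RLP28 at -1.55 in WT flg22 leaves. RLP27 (-1.10) and RLP28 (-0.75) were lower in WT flg22 leaves, with calls lost in 1 and 4 such fits. RLP36 (-1.66), RLP27 (-1.15) and RLP45 (-0.53) were lower in rdd flg22 leaves, with calls lost in 5, 1 and 3 such fits.

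**Figure D4:**
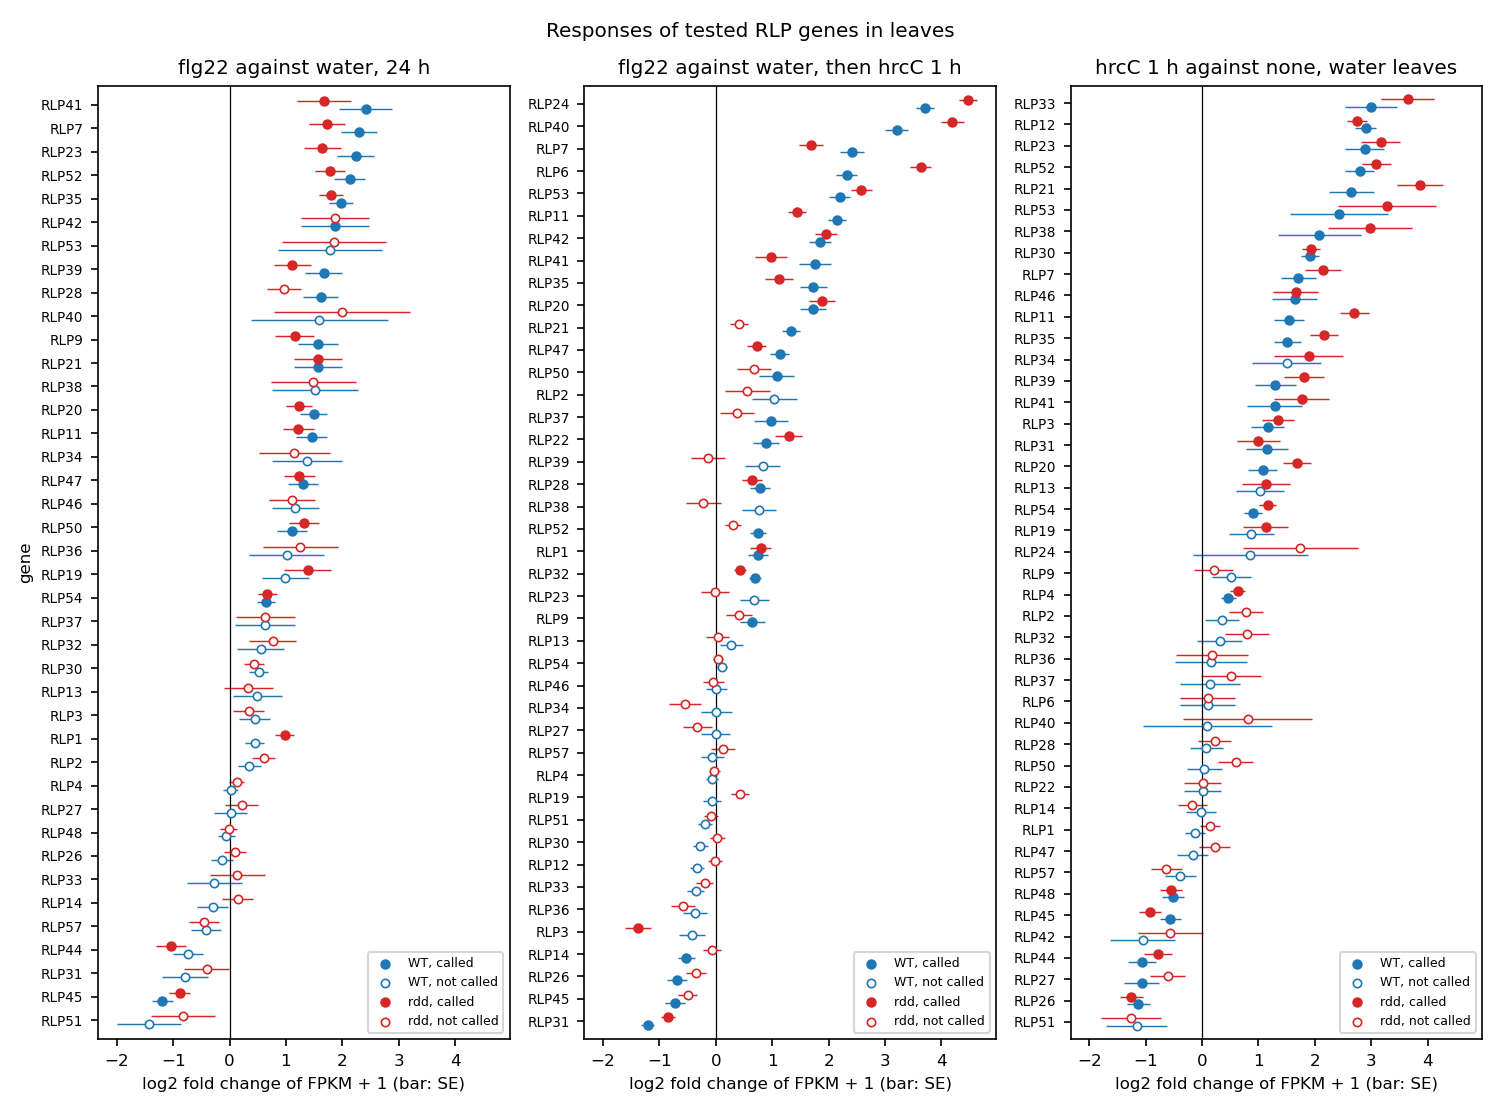
Log2 differences of the tested RLP genes in WT (blue) and rdd (red) leaves, with bars of 1 SE and filled points for calls: flg22 against water at 24 h (left), flg22 against water before hrcC (middle) and hrcC against none in water-inoculated leaves (right). RLP24 and RLP40 lie above 3 in the middle panel in both genotypes, and the bars in the left panel are wider than in the middle one.

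No member was called between rdd and WT in seedlings or in leaves without bacteria by the main fits. limma called 0 members between the genotypes in seedlings at 0 h, 1 h and 3 h, where 0.323%, 0.286% and 0.953% of all genes were called in either direction and where 2, 3 and 5 of 30 members had an unadjusted p below 0.05. Without the filter 1 member was called higher at 1 h, where the main fit called 0.122% of all genes higher in rdd. With median-ratio scaling 1 was called lower at 3 h, beside 128 of 19007 genes in that fit and 0.551% in the main fit. The member differences ran from -0.49 (RLP12) to 0.47 (RLP27) at 0 h, from -0.79 (RLP12) to 0.76 (RLP38, adjusted p = 0.15) at 1 h and from -1.11 (RLP22) to 0.36 (RLP3) at 3 h, with a median SE of 0.21. In leaves 0 of 40 members were called after water or flg22, beside 0.0881% and 0.171% of all genes in either direction (0.022% and 0.0275% higher in rdd). Without the replicate block 0 members had an unadjusted p below 0.05 and the median SE was 0.31. With the block, limma again called 0, but 1 member after water (RLP33, -0.66 ± 0.25, adjusted p = 1) and 3 after flg22 had an unadjusted p below 0.05, and the median SE was 0.19. Those 3 were RLP51 (0.87 ± 0.19, adjusted p = 0.18), RLP9 (-0.71 ± 0.17, adjusted p = 0.21) and RLP45 (0.39 ± 0.11, adjusted p = 0.30). No response to flg22 was called different between the genotypes for any member, beside 0.0106% and 0.00529% of genes in seedlings at 1 h and 3 h, 0% in leaves and 0.0956% in hrcC leaves; 2, 3, 0 and 7 members had an unadjusted p below 0.05, and 1 in leaves with the block.

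In the hrcC leaves 6 members were called between the genotypes, all higher in rdd. An unadjusted p of limma below 0.05 was reached by 17 members after water and 10 after flg22. The member differences ran from -0.59 (RLP9) to 1.38 (RLP11) after water and from -0.92 (RLP3) to 1.86 (RLP40) after flg22. Of all genes 0.304% and 0.624% were called lower in rdd. After water the called members were RLP11 and RLP21, 2 of 42 tested, beside 0.641% of all genes called higher. RLP11 (AT1G71390) was at 2.37 and 2.27 FPKM in WT and at 8.10 and 7.19 FPKM in rdd (1.38 ± 0.16, adjusted p = 0.012), and RLP21 (AT2G25470) at 7.71 and 5.47 FPKM and at 16.6 and 15.8 FPKM (1.20 ± 0.16, adjusted p = 0.020). These calls were lost in 4 and 3 of 4 fits without 1 library, with adjusted p up to 0.093 and 0.11. In the compared groups alone 1 of the 2 was called.

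After flg22 and hrcC the called members were RLP24, RLP40, RLP6 and RLP53, 4 of 42, beside 1.46% of all genes called higher. RLP40 was at 33.4 and 49.5 FPKM in WT and at 152 and 148 FPKM in rdd, a difference of 1.86 ± 0.20 (adjusted p = 0.0064) that was called in each of the 4 fits without 1 library. RLP24 was at 32.5 and 31.7 FPKM in WT and at 111 and 90 FPKM in rdd, a difference of 1.61 ± 0.16 (adjusted p = 0.0041) that was lost without WT replicate 1 (0.053). RLP6 (AT1G45616) was at 4.68 and 5.91 FPKM in WT and at 16.7 and 13.1 FPKM in rdd (1.34 ± 0.18, adjusted p = 0.015), lost in 2 of 4 fits without 1 library. RLP53 (AT5G27060) was at 44.9 and 52.5 FPKM and at 103 and 116 FPKM (1.15 ± 0.18, adjusted p = 0.024), lost in each of the 4. No group pair overlapped for these 4 genes, but they were named for their calls on these same libraries, so this is no further support. As a difference in the response to flg22 they were not called: RLP6 had 1.31 ± 0.26 (adjusted p = 0.14), RLP40 0.98 (0.27) and RLP24 0.76 (0.27).

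The genes called between the genotypes in hrcC leaves were looked at in the leaves without bacteria, a choice made after their values were seen. In replicate 3 of the flg22 leaves RLP40 was at 57.6 FPKM in WT and 152 FPKM in rdd, RLP24 at 9.62 and 26.4 FPKM, RLP6 at 1.14 and 4.32 FPKM and RLP53 at 22.5 and 29.0 FPKM. In replicates 1 and 2 RLP40 was at 5.5 and 4.45 FPKM in WT and at 5.41 and 5.79 FPKM in rdd, and RLP24 stayed at or below 0.71 FPKM in both genotypes. The high levels of RLP40, RLP24, RLP6 and RLP53 after flg22 alone were thus those of replicate 3. RLP11 and RLP21, called after water and hrcC, were lower in rdd in that replicate pair. They were at 4.06 and 5.76 FPKM in WT and at 1.9 and 5.22 FPKM in rdd. In the same pair 4.49% of 17823 genes were at least 2-fold higher in rdd. With 1 library per genotype there is no test of this pair. In flg22 replicates 1 and 2 RLP11 was at 1.39 and 1.52 FPKM in WT and at 2.64 and 1.79 FPKM in rdd. After water alone RLP11 was at 0.22, 0.17 and 0.03 FPKM in WT and at 0.34, 0.46 and 0.19 FPKM in rdd. These low water values were higher in rdd in each pair. RLP21 was higher in rdd in some of the other pairs and lower in others.

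**Figure D5:**
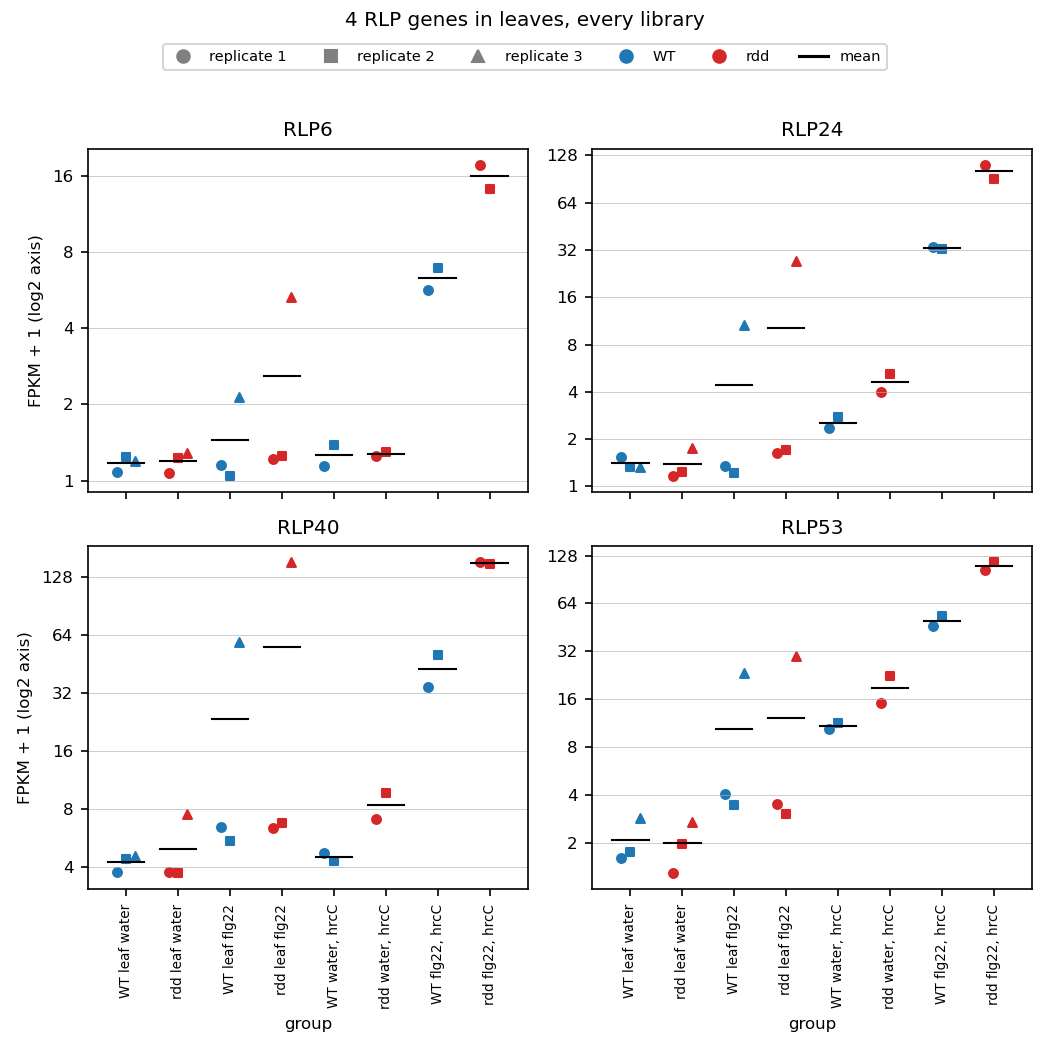
Level of RLP6, RLP24, RLP40 and RLP53 in each leaf library of the 8 leaf groups, as FPKM + 1 on a log2 axis, WT in blue and rdd in red, with replicate numbers as marker shapes. After flg22 and hrcC both rdd libraries lie above both WT libraries for each gene, the genes being chosen by their calls on these libraries. In flg22 leaves replicate 3 lies above replicates 1 and 2.

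Many members lie beside one another in the genome. By gene order in the RefSeq annotation, with at most 5 protein-coding genes between members, 28 members fall into 11 runs and 22 stand alone. Such neighbours can be near-identical copies whose reads the authors' counting may have split, and the strand setting is not given in the sources used here, so single values within a run are less certain. Neighbours still differed in pattern. RLP22 and RLP23 are a run, yet RLP22 was at 2.11 to 3.13 FPKM in WT seedlings and at most 0.09 FPKM in WT water-inoculated leaves, while RLP23 was at most 0.17 FPKM and at least 13.3 FPKM in the same libraries. In the run of RLP24 to RLP28, RLP24 was higher and RLP26 lower after flg22 than after water in the WT leaves given hrcC. RLP11 was listed at 0 in the 3 WT seedling libraries at 0 h in which its neighbour RLP12 was at 4.04 to 6.17 FPKM.

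The signalling partners of RLPs were read from a list of 23 genes (SOBIR1, the SERK and BIR kinases, cytoplasmic kinases, the EDS1 group with its helper receptors, RBOHD, MPK3, MPK6, CLV2 and CRN). In WT seedlings 12 rose and 0 fell at 1 h, beside 9.62% and 7.64% of all genes, and 13 and 0 at 3 h, beside 12.1% and 6.81%. In rdd seedlings 13 rose and 1 fell at 1 h, beside 10.2% and 6.58%, and 10 and 0 at 3 h, beside 8.04% and 8.03%. Between 1 h and 3 h 3 rose and 9 fell in WT, beside 11.9% and 6.77%, and 0 and 13 in rdd, beside 4.16% and 7.26%. BIR1, a kinase that restrains BAK1, rose at 1 h in WT by 2.72 ± 0.13 (adjusted p = 5.8e-11), from 38.8, 56.5 and 51.2 FPKM to 336, 316 and 319 FPKM. SERK4 (2.99 ± 0.19), the cytoplasmic kinase BIK1 (2.05 ± 0.10) and BAK1 (1.93 ± 0.11) rose with it.

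SOBIR1, the partner kinase of many RLPs, had its highest levels in the leaves given flg22 and then hrcC. It stood at 25.1, 30.4 and 32.7 FPKM in WT seedlings at 0 h and at 106, 113 and 73.9 FPKM at 1 h (1.68 ± 0.18, adjusted p = 2.6e-06). In WT leaves it was at 151, 124 and 211 FPKM after water and at 474, 391 and 772 FPKM after flg22 (1.72 ± 0.30, adjusted p = 0.0034). With hrcC it was at 749 and 654 FPKM after water and at 1103 and 1258 FPKM after flg22. BAK1, by contrast, was not called between flg22 and water leaves in WT (0.29), at 35.1, 34.7 and 32.2 FPKM and at 43.0, 33.9 and 49.7 FPKM.

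In WT leaves 12 partners rose and 3 fell with flg22, beside 14.8% and 8.3% of all genes, and 11 and 1 in rdd, beside 12.8% and 3.72%. SAG101 (1.09 ± 0.12), PAD4 (1.76 ± 0.22) and ADR1-L2 (1.54 ± 0.20), which act downstream of such receptors, were the most firmly called in WT. In the hrcC leaves flg22 against water gave 6 higher and 1 lower in WT, beside 22.4% and 23% of all genes, and 4 and 5 in rdd, beside 22% and 18.6%, higher shares that lie near those of all genes. With hrcC against none the counts were 18 and 4 in WT water leaves, beside 21.6% and 23.6%, and 12 and 5 in WT flg22 leaves, beside 18.9% and 28.7%. They were 17 and 4 in rdd water leaves, beside 22.1% and 24%, and 13 and 5 in rdd flg22 leaves, beside 19% and 29.7%. BAK1 was higher in all 4, by 2.09 ± 0.14 in WT water leaves, whereas CLV2, itself an RLP outside the 50 that acts in meristem size control, was lower, by 1.64 ± 0.14 in rdd flg22 leaves. Between WT water-inoculated leaves and seedlings 8 partners were higher and 3 lower, beside 33.8% and 24.7% of all genes, and 8 and 5 in rdd, beside 31.3% and 26.7%. Between the genotypes and in their responses limma called 0 partners in each of 11 comparisons, with 0 to 5 of 23 at an unadjusted p below 0.05.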

How the data were processed

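Per the submitters' processing notes, the authors used Trim Galore, HISAT2, featureCounts and DESeq2 with the TAIR10 build; versions and settings are not given in the sources used here. The deposited values of the 38 RNA libraries, 1 per gene and library, are taken as FPKM from their totals; the submitters do not name the unit, and no read counts were used. The single-library values and the series table differed by at most 0.0. The 32 bisulfite samples of the 70 in the series were not analysed here.

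Values were tested with limma 3.58.1 (R 4.3.3) on log2(FPKM + 1), two-sided, with robust trended variance, on genes that reached 1 FPKM in 3 or more libraries (2 or more where the fit held hrcC groups). Benjamini-Hochberg adjustment ran over all genes kept, and calls used 0.05. The fit was first tested on simulated data. There were 27 comparisons in 5 fits, over seedlings, leaves, hrcC leaves, all leaves, and untreated seedlings with water-inoculated leaves. The main fits left out the replicate block. Same-numbered leaf libraries, whose deviations correlated at r of 0.31 to 0.90, were also fitted with the replicate number as a block. Seedlings (-0.27 to 0.33) and hrcC leaves (-0.1 to 0.11) showed no such pairing.

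Named members are those called, up to 6 per direction by size of difference, the members of the ligand, resistance and conserved lists, and all called between genotypes. Partners are named up to 4 per comparison by adjusted p, and SOBIR1 and BAK1 besides. Members and lists were chosen with earlier results of these data known. Gene symbols and gene order came from RefSeq (TAIR10.1), which matched 32830 of 33597 identifiers. Alternatives were a pseudocount of 0.1, no filter, median-ratio scaling, organelle genes left out, the compared groups only, the replicate block and leaving out each library. Chosen after seeing the data were leaving out the shallowest library, leaf replicates 1 and 2 alone, and leaf replicate 3 alone.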

Additional observations from a re-analysis of the deposited data

Results flagged for a closer look

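RLP37 was looked at again because its change from 0 h differed between the 2 seedling times. The tests below use the values that flagged it, so they are no separate support. Its WT mean at 3 h, the lowest of its group means, was 0.0967 FPKM, below the 1 FPKM of the filter. In WT it rose at 1 h, by 0.67 on the log2 scale, and was not called at 3 h (-0.17 ± 0.20, adjusted p = 0.63), and the direct comparison of 3 h with 1 h gave -0.83 ± 0.20 (adjusted p = 0.0082). In rdd the same comparison gave -0.87 (adjusted p = 0.0090). The call at 1 h against 0 h in WT was lost without any of the 3 libraries at 0 h.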

How the results depend on the processing

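Counts of called members were recomputed 700 times over 54 counts, and 624 stayed within 1.5 times the reported count. Of 3486 recomputed values for 291 called member differences, 3110 kept their call, 375 lost it and 1 changed sign. That one is RLP40 in rdd flg22 leaves with hrcC against none, at -0.024 with leaf replicate 3 alone. Causes were not tested.

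In seedlings, counts of lower members in WT became 2 at 1 h without the shallowest library, beside 1861 of 18846 genes. At 3 h in WT they became 2 without that library (1637 of 18846 genes) and 2 with median-ratio scaling (2090 of 19007). In the compared groups only they became 3 (1826 of 17790). In rdd at 1 h they became 2 without the filter, with median-ratio scaling (1407 of 19007 genes) and without the shallowest library (1644 of 18846). In rdd at 3 h the compared groups only gave 5 higher and 0 lower, beside 716 and 178 of 17721 genes. For 3 h against 1 h in WT, lower members became 2 with the pseudocount of 0.1 and without the filter. They were also 2 without organelle genes (1252 of 18675 genes) and in the compared groups only (1315 of 17742). In rdd they became 3 in the compared groups only (745 of 17807). Between genotypes 1 was higher at 1 h without the filter and 1 lower at 3 h with median-ratio scaling (128 of 19007 genes). The replicate block moved no seedling count past 1.5 times.

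In leaves with flg22 against water the replicate block gave 25 higher and 4 lower in WT, beside 29.6% and 17.9% of all genes. In rdd it gave 24 and 4, beside 30.4% and 10.9%. Replicates 1 and 2 alone gave 24 and 3 in WT (31.5% and 18.1%) and 26 higher in rdd (32.3%). The compared groups only gave 1 lower in rdd, beside 291 of 17401 genes. In hrcC leaves median-ratio scaling gave 4 lower in rdd, and the compared groups only gave 1 higher in rdd against WT after water. For hrcC against none, lower members in WT water leaves became 3 without organelle genes, 2 in the compared groups only and 8 with leaf replicate 3 alone. In these comparisons the replicate block joined leaf and hrcC libraries by number alone, and hrcC leaves held no replicate 3. The block is thus no correction for paired libraries here. In flg22 leaves it gave 25 higher in WT and 27 in rdd, beside 30.8% and 30.7% of all genes. Lower members there became 10 in WT and 7 in rdd with leaf replicate 3 alone, and 2 in rdd without organelle genes. For leaves against seedlings, leaf replicate 3 alone gave 12 higher in WT and 11 in rdd, of 25 members tested in each. The main fit gave 24 and 22 of 36. Fewer members passed the filter by construction with leaf replicate 3 alone, so the lower counts are partly members not tested. With 1 leaf library per genotype, the spread among leaves was not measured there.

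Leaving out 1 library at a time gave these ranges of counts. Lower members ranged from 0 to 1 in WT at 3 h, 1 to 2 in rdd at 1 h, 1 to 4 in rdd at 3 h, 1 to 4 and 2 to 6 for 3 h against 1 h in WT and rdd, and 0 to 1 for rdd against WT at 3 h. In leaves they ranged from 1 to 2 in WT and 0 to 1 in rdd, with 7 to 13 higher in rdd. In hrcC leaves they ranged from 1 to 4 in WT for flg22 against water, and higher members in rdd against WT from 0 to 1 after water and 1 to 3 after flg22. For hrcC against none, lower members ranged from 2 to 5 and 1 to 3 in WT after water and flg22 and from 2 to 4 and 1 to 4 in rdd, and higher members in WT flg22 leaves from 12 to 24, the highest without leaf replicate 3.

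The files give no read counts, so depth limits low members in an unknown measure. Median-ratio scaling moved the median log2 difference of all genes in WT leaves against seedlings from 0.19 to -0.03.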

Other observations

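Replicate 1 of the rdd seedlings at 1 h held higher levels of 3 RLPs that were higher in leaves than did the other 17 seedling libraries. RLP23 was at 3.26 FPKM there and at most 0.79 FPKM in the others. RLP41 was at 2.91 FPKM there and at most 0.33 FPKM in the others, and RLP40 at 2.49 FPKM and at most 0.51 FPKM. These 3 were picked after their values were seen, from the 22 members called higher in rdd leaves than in rdd seedlings. The rest of the 22 are not described for that library.

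RLP33 and RLP34 had unlike patterns in the leaf groups. In WT leaves 24 h after water and flg22, RLP33 was at 8.60, 11.7 and 18.9 FPKM and at 6.08, 7.44 and 22.3 FPKM, which overlapped. RLP34 was at 24.8, 19.2 and 61.9 FPKM and at 58.2, 52.4 and 179 FPKM in the same libraries, with the water value of replicate 3 above the flg22 values of replicates 1 and 2. With hrcC RLP33 was at 99.5 and 114 FPKM after water, above all of its leaf libraries without bacteria.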
